A study of Rattus norvegicus with 16 samples.

Results

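Tenascins, periostin, thrombospondins, osteonectin, osteopontin and fibronectin were followed through 4 cell populations sorted from cultures of rat olfactory mucosa, the lining of the nose in which the olfactory neurons and their supporting tissue lie. The 10 genes Tnc, Tnn, Tnr, Postn, Thbs1, Thbs2, Thbs4, Sparc, Spp1 and Fn1 were taken by their symbols in the array files, which hold 13 probes for them out of 30367. All 10 passed the filter on dim probes and were tested among 20571 genes. Flow cytometry had given the populations a purity of 93 to 97%, per the labels, from cultures of male Fischer rats. The TRKA-TGF cells were TRKA cells conditioned with transforming growth factor alpha, a ligand of the epidermal growth factor receptor. The TRKA, CD90 and p75 cells shared one culture protocol and are named as in the labels; CD90 is a surface glycoprotein and p75 a neurotrophin receptor. Each population had 4 biological replicates with 1 array each. The labels give no age of the animals and do not say whether equal replicate numbers came from the same animals.

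Matricellular proteins are secreted into the extracellular matrix but act less as scaffold than as signals: they bind integrins, syndecans, CD36, CD44, CD47 and growth factors and change how cells adhere, spread and migrate. In the olfactory system, where new axons grow from the epithelium to the olfactory bulb throughout life, such proteins are made by the ensheathing glia and by the connective tissue cells around the nerve bundles. Fibronectin is a structural protein of the matrix and is described with them because it shares many of their receptors.

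Each array probe is a 60-base sequence, and the probes carried the differences described here. The probes of 6 members are shown because the comparisons turn on them; all letters are in lower case since no stretch was singled out, and each runs 5′ to 3′.
Spp1, probe A_44_P491796: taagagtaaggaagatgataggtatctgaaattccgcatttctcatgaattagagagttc
Thbs1, probe A_43_P17442: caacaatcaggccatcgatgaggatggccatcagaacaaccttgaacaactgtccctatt
Tnc, probe A_43_P15638: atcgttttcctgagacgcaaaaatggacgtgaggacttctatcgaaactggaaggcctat
Postn, probe A_44_P525235: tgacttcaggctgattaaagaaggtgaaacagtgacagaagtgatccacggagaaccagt
Tnn, probe A_44_P218612: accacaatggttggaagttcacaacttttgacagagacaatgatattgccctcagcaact
Fn1, probe A_64_P077570: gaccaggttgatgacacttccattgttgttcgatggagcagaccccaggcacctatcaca
The longest run of letters shared by the probes of any pair of members was 9 bases. In the array files, on rn4, the Tnn probe lay at chr13:75506343-75506402 and the Fn1 probe at chr9:70745666-70745725, both on the minus strand. The Postn probe was placed at chr2:143560792-143561828 on the plus strand, so that its 60 bases were spread over 1037 bases of genome. The other positions given on rn4 were chr1:53589151-53589210 for Thbs2, chr2:23011026-23011612 for Thbs4 and chr10:40811473-40811532 for Sparc, all on the minus strand, and chr13:75347093-75347152 on the plus strand for Tnr. The array files give no position for the Tnc, Thbs1 and Spp1 probes, and whether a probe lies in a coding exon or an untranslated one was not analysed here.

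Levels are log2 signals, background-subtracted and set against their own array's 75th percentile, which 0 marks. They can be compared between populations for one probe but not between genes. On TRKA arrays 51.4 to 57.5% of the spots were well above background by the scanner software's own flag, against 66.4 to 70.6% on TRKA-TGF, 70.7 to 72.4% on CD90 and 68.5 to 71.2% on p75 arrays. Their median signal was 22.8 to 39.2 on TRKA arrays and 133 to 219 on the other 12. The TRKA and p75 arrays shared slide 1, and the TRKA-TGF and CD90 arrays slide 2, so in the other 4 comparisons slide and population cannot be told apart. Within a slide each population also had a row of its own, which cannot be told apart from it. Thy1 (CD90) averaged 3.44 in CD90 cells and at most −1.56 elsewhere, and Ngfr (p75) 3.16 in p75 cells and at most −0.37 elsewhere. Over 12 macrophage markers, among them Csf1r, Cd68 and C1qa, the mean level per array was 3.24 to 3.36 in TRKA-TGF, 4.90 to 5.51 in TRKA, −0.69 to 0.31 in CD90 and −2.68 to −1.73 in p75 cells. All 12 were above background on every TRKA array, and Cd163 on no TRKA-TGF array. Over 8 fibroblast markers the range was −3.997 to −2.60 in TRKA-TGF, −3.02 to −0.30 in TRKA, 4.40 to 4.58 in CD90 and −0.46 to 1.35 in p75 cells. Over 10 glial markers it was −3.61 to −2.63 in TRKA-TGF, −5.81 to −5.08 in TRKA, −4.13 to −3.71 in CD90 and 3.29 to 3.44 in p75 cells. Over 6 smooth muscle markers it was −4.05 to −2.92 in TRKA-TGF, −3.29 to −2.81 in TRKA, 1.47 to 2.31 in CD90 and −2.23 to −1.96 in p75 cells. The 5 epithelial and 3 endothelial markers averaged −3.35 or less on every array.

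Tnc, Postn, Thbs2 and Sparc had lower means in TRKA-TGF and TRKA cells than in CD90 and p75 cells, whereas Spp1 had its highest level in TRKA cells. Within slide 1, 1 member (Spp1) was higher and 5 (Tnc, Postn, Thbs2, Thbs4 and Sparc) were lower in TRKA than in p75 cells at an adjusted p under 0.05 in limma. Of all genes 35.7% were called in that comparison, 18.8% higher and 16.9% lower. Within slide 2, no member was higher and 5 (Tnn, Postn, Thbs1, Thbs2 and Fn1) were lower in TRKA-TGF than in CD90 cells, where 14.9% of all genes were called, 7.72% higher and 7.19% lower. At an unadjusted p under 0.05 in limma 1 member (Spp1) was higher in TRKA-TGF cells and 8 were lower, with Tnc, Thbs4 and Sparc joining the lower side. The share of all genes at that unadjusted threshold was not counted, so counts at it, here and below, have no baseline. A fit to the 8 arrays of slide 2 alone called 8 of the 10 members, adding Tnc and Sparc (lower) and Spp1 (higher). Over all 20571 genes its count also rose, to 4183 from 3069. The matching fit to slide 1 called 5 in TRKA against p75 cells in place of 6, losing Thbs2 and Sparc and adding Thbs1 (higher). Its count over all genes also fell, to 5067 from 7352. The median log2 difference of the 10 members was −3.83 in TRKA against p75 cells, beside −0.01 over all genes, and −4.92 in TRKA-TGF against CD90 cells, beside 0.15 over all genes. Across slides, 1 member was higher and 6 were lower in TRKA than in CD90 cells (34.9% of all genes called, 18.3% higher and 16.6% lower; member median −4.02, all genes −0.09). In TRKA-TGF against p75 cells 1 was higher and 6 were lower (15.1% called, 7.97% higher and 7.15% lower; medians −5.14 and 0.14). In TRKA-TGF against TRKA cells 1 was higher and 3 were lower (26.4% called, 13.5% higher and 12.9% lower; medians −1.54 and 0.19). In CD90 against p75 cells 2 were higher and none lower (7.25% called, 3.68% higher and 3.57% lower; medians 1.32 and 0.05); at an unadjusted p under 0.05 this rose to 4 members, all higher. These comparisons share populations, so their counts are not independent. The split of all called genes hung on the scaling: with the percentile taken over probes detected on every array, the higher share was 20.7% in place of 52.7% in TRKA against p75, 18.7% in place of 52.3% in TRKA against CD90 and 82.9% in place of 51.1% in TRKA-TGF against TRKA cells, and the all-gene medians were −0.90, −1.07 and 0.96. Quantile normalization gave 39.8% in the last of these. No member called above changed direction under either scaling.

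**Figure D1:**
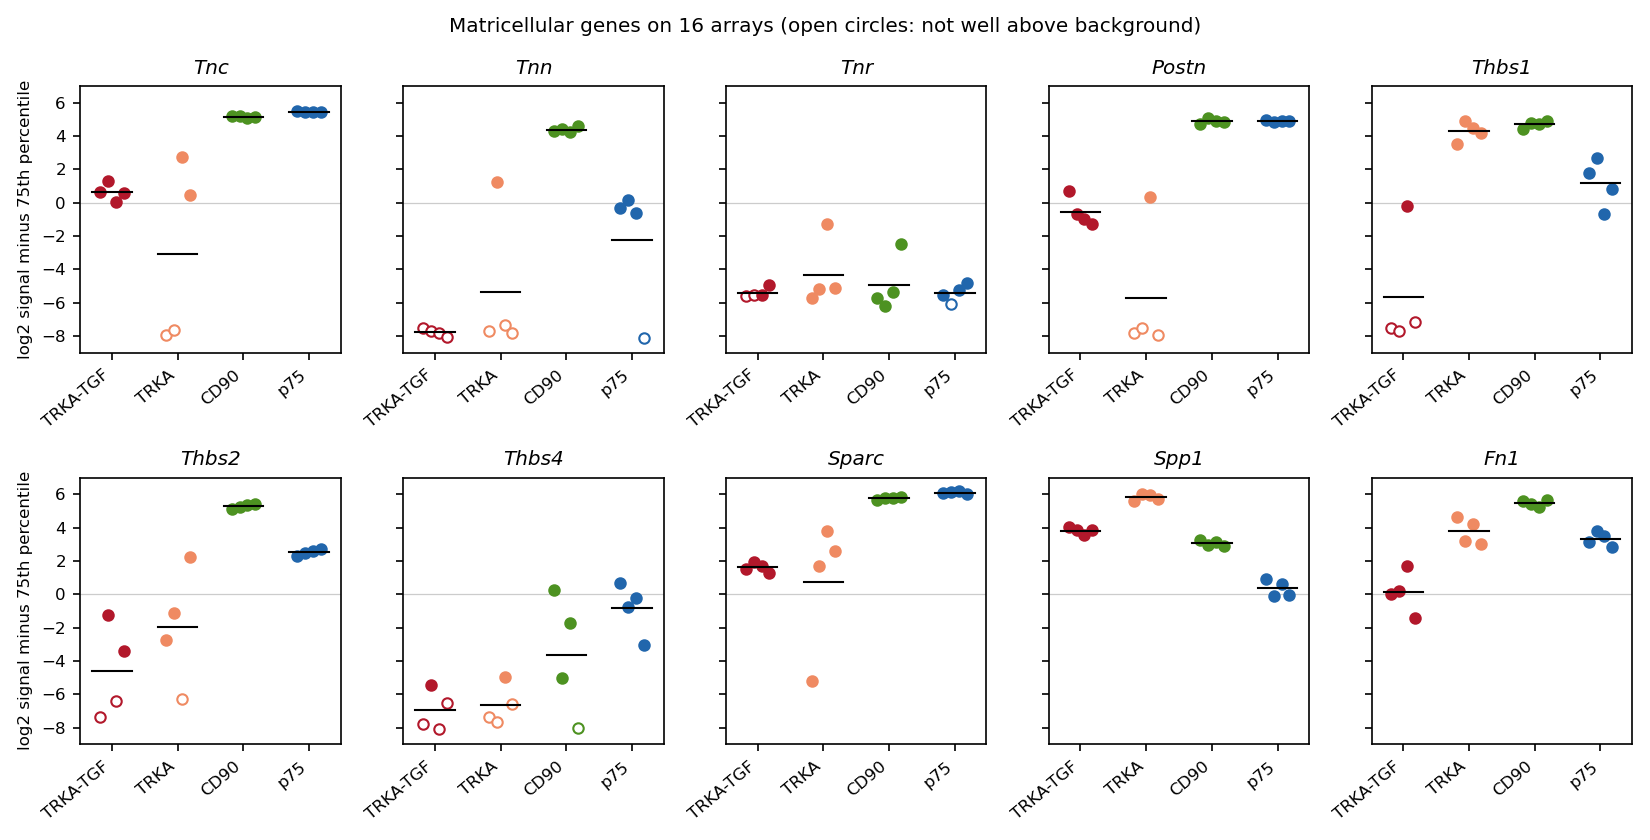
Level of each of the 10 genes on every array, as log2 signal minus the array's 75th percentile, by population; filled circles were well above background, open circles were not, and bars are means of 4 arrays. Tnc, Postn and Sparc form tight groups in CD90 and p75 cells and scatter in TRKA cells, and Spp1 is highest in TRKA cells on every array.

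**Figure D2:**
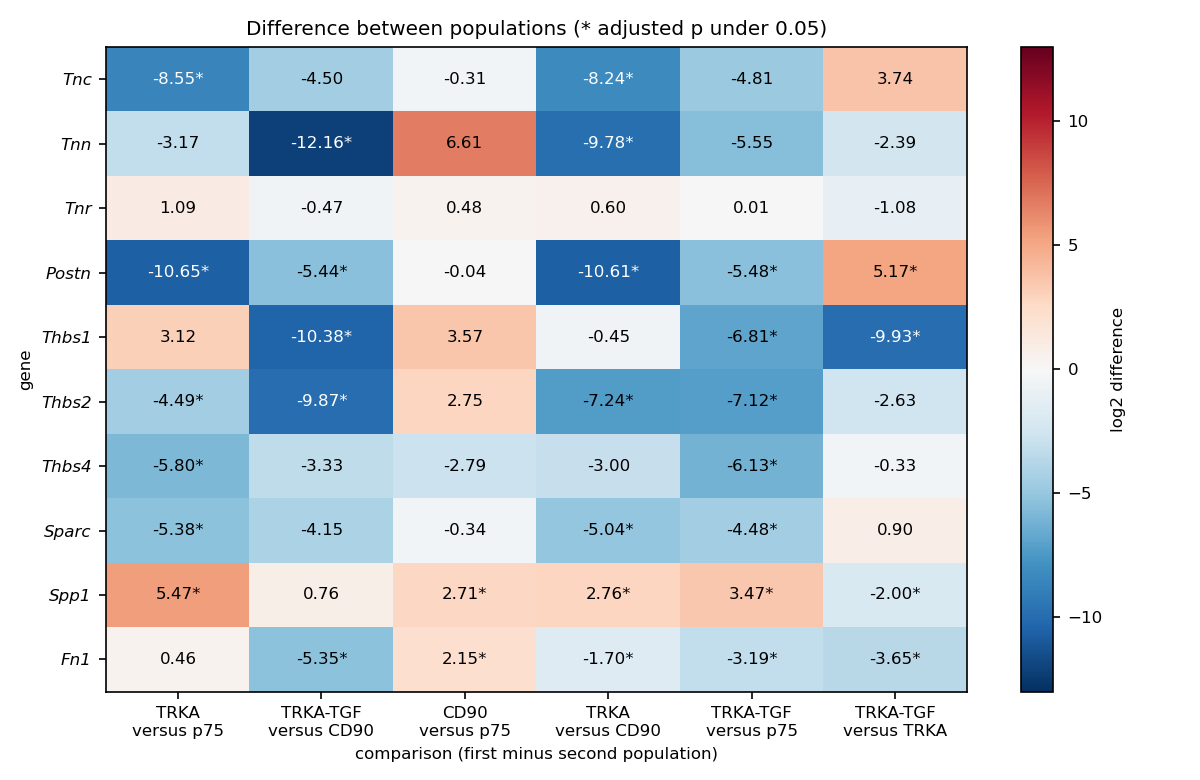
Log2 difference of each gene in the 6 comparisons, first population minus second, with an asterisk at an adjusted p under 0.05 in limma. Blue cells (lower in the first population) fill most of the TRKA and TRKA-TGF columns against p75 and CD90, and the Spp1 row is positive except in TRKA-TGF against TRKA.

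Tenascin-C, an anti-adhesive glycoprotein of developing and injured tissue, was strongly expressed in CD90 and p75 cells and had lower means in both TRKA populations. Its levels were 0.62, 1.32, 0.07 and 0.56 on the TRKA-TGF arrays, −7.94, −7.65, 2.73 and 0.45 on the TRKA arrays, 5.18, 5.17, 5.09 and 5.13 on the CD90 arrays and 5.48, 5.45, 5.45 and 5.43 on the p75 arrays. No TRKA or TRKA-TGF array reached any CD90 or p75 array, and the low pair of TRKA arrays was not above background. Tnc was lower in TRKA than in p75 cells (log2 difference −8.55 ± 1.85 SE, adjusted p = 0.00242, limma) and lower than in CD90 cells (−8.24, adjusted p = 0.00313). Leaving out TRKA replicates moved the difference from p75 cells between −6.94 (without replicate 1) and −10.50 (without replicate 3), past the threshold each time. The difference of TRKA-TGF from CD90 cells, −4.50 (22.6-fold), missed the threshold in the fit to all 16 arrays (adjusted p = 0.136), whose spread includes the TRKA arrays, and passed it in the fit to the 8 arrays of slide 2 (adjusted p = 4.22e-05). Likewise the difference of −4.81 from p75 cells had an adjusted p of 0.106 in the first fit and 1.94e-05 in the fit to those 2 populations. TRKA-TGF and TRKA cells overlapped (log2 difference 3.74, adjusted p = 0.156); without TRKA replicate 3 the difference was 5.69 (adjusted p = 0.0129).

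Tenascin-N, also called tenascin-W and known from bone and tumour stroma, was highest in CD90 cells. Its levels were −7.52, −7.69, −7.83 and −8.06 on the TRKA-TGF arrays and 4.31, 4.39, 4.24 and 4.62 on the CD90 arrays. No TRKA-TGF array was above background, so the fold is given against a floor. Tnn was 2360-fold lower in TRKA-TGF than in CD90 cells by that floor (measured log2 difference −12.16 ± 1.99 SE, adjusted p = 0.000701, limma). The floor is the dimmest signals of any probe on the dim arrays that the scanner software still called above background. It is no strict detection limit, so the true fold may be smaller. Tnr, for one, was not above background at −5.6 and −5.55 on TRKA-TGF replicates 1 and 2. TRKA arrays stood at −7.68, 1.27, −7.33 and −7.81, with replicate 2 alone above background, and the difference from CD90 cells was −9.78 (adjusted p = 0.00157), or −11.99 without replicate 2 (adjusted p = 5.39e-05). The p75 arrays read −0.30, 0.18, −0.64 and −8.13, the last not above background, and the CD90 minus p75 difference of 6.61 missed the threshold (adjusted p = 0.0643). Neither TRKA-TGF (−5.55, adjusted p = 0.082) nor TRKA cells (−3.17, adjusted p = 0.235) passed it against p75 cells. This probe had 1 spot per array. A second Tnn probe with 10 spots, A_42_P808236 at chr13:75502934-75502993, read 2.45, 2.37, 2.21 and 2.42 in CD90 cells and was above background on 1 p75 array, at −3.87. By that probe CD90 exceeded p75 cells by 9.28 ± 0.71 log2 units (SE, adjusted p = 1.25e-06, limma over all probes). The probes thus disagreed on the p75 arrays. For TRKA-TGF and for TRKA cells against CD90 cells the second probe gave −10.10 (adjusted p = 3.22e-07) and −9.70 (adjusted p = 2.6e-07).

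Tenascin-R, which in the nervous system is made mainly by oligodendrocytes and some neurons, was dim in every population, though above background on 13 of the 16 arrays. It read −5.60, −5.55, −5.55 and −4.94 on the TRKA-TGF arrays, −5.74, −5.16, −1.29 and −5.14 on the TRKA arrays, −5.74, −6.22, −5.33 and −2.47 on the CD90 arrays and −5.56, −6.07, −5.26 and −4.79 on the p75 arrays. All 4 populations overlapped, and the adjusted p-values of the 6 comparisons ran from 0.386 to 0.998. Quantile normalization called Tnr in the 3 comparisons that involve TRKA cells, with log2 differences of 2.46 against p75, 2.15 against CD90 and −2.60 for TRKA-TGF minus TRKA. The main fit had the same signs (1.09, 0.61 and −1.08), so whether Tnr was called hung on the scaling. With the percentile over probes detected on every array TRKA minus CD90 turned to −0.37. A second probe was above background on 1 of 16 arrays and was not kept.

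Periostin, a fasciclin-domain protein that binds collagen and tenascin-C, followed the same order as Tnc. Its levels were 0.71, −0.71, −0.97 and −1.30 on the TRKA-TGF arrays, −7.81, −7.54, 0.35 and −7.95 on the TRKA arrays, 4.71, 5.05, 4.89 and 4.84 on the CD90 arrays and 4.98, 4.86, 4.88 and 4.92 on the p75 arrays. CD90 and p75 cells were interleaved, and every TRKA and TRKA-TGF array lay below both. Against p75 cells on the same slide, Postn was lower in TRKA cells (log2 difference −10.65 ± 1.39 SE, adjusted p = 4.6e-05, limma). Without TRKA replicate 3 that difference was −12.68 (adjusted p = 2.82e-10). Against CD90 cells on the same slide it was 43.4-fold lower in TRKA-TGF cells (log2 difference −5.44, adjusted p = 0.0164). It was higher in TRKA-TGF than in TRKA cells by 5.17 (adjusted p = 0.0141), or by 7.20 without TRKA replicate 3, which overlapped the TRKA-TGF arrays; the call was lost with those 2 populations alone in the fit (adjusted p = 0.101). CD90 minus p75 was −0.04 (adjusted p = 0.996), with a sign that turned under other scalings.

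The TRKA replicates that held Tnc or Postn were not a fixed pair. Replicates 3 and 4 were above background for Tnc, replicate 3 for Postn, replicate 2 for Tnn and replicates 1, 2 and 4 for Thbs2. The mean of the 8 fibroblast markers on those TRKA arrays was −3.02, −2.97, −1.07 and −0.30 in replicates 1 to 4. Of the 8, the collagen genes Col1a1, Col1a2 and Col3a1 were above background on all 4 TRKA arrays, Pdgfra and Pdgfrb on 3, Thy1 on 2 and Dcn and Lum on none. Whether fibroblasts among the sorted cells have a part in these signals was not tested, and fewer cells of a type cannot be told from less RNA per cell in bulk samples.

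Thrombospondin-1, an anti-angiogenic glycoprotein that activates latent TGF-beta and binds CD36 and CD47, had the largest difference between TRKA-TGF and TRKA cells among the 10 members. Its levels were −7.52, −7.68, −0.22 and −7.19 on the TRKA-TGF arrays, 3.54, 4.92, 4.46 and 4.19 on the TRKA arrays, 4.45, 4.80, 4.75 and 4.91 on the CD90 arrays and 1.79, 2.65, −0.65 and 0.85 on the p75 arrays. TRKA-TGF replicate 3 was the one array of its population above background. Thbs1 was lower in TRKA-TGF than in TRKA cells (log2 difference −9.93 ± 1.32 SE, adjusted p = 0.000106, limma), a comparison across slides; without TRKA-TGF replicate 3 it was −11.74 (adjusted p = 8.49e-08). Within slide 2 it was lower in TRKA-TGF than in CD90 cells (−10.38, adjusted p = 8.43e-05), and it was also lower than in p75 cells (−6.81, adjusted p = 0.00238), though replicate 3 of the TRKA-TGF cells overlapped the p75 arrays. TRKA and CD90 cells overlapped (log2 difference −0.45, adjusted p = 0.819). Every TRKA array exceeded every p75 array, by 3.12 on average, at an adjusted p of 0.0822 with all arrays and 0.018 with slide 1 alone. CD90 minus p75 was 3.57, at an adjusted p of 0.145 with all arrays and 0.0177 with those 2 populations alone.

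Thrombospondin-2, a close relative of thrombospondin-1 that modulates collagen fibril assembly, was graded between CD90 and p75 cells and low in the others. It read −7.38, −1.22, −6.38 and −3.43 on the TRKA-TGF arrays, −2.73, −1.14, −6.26 and 2.24 on the TRKA arrays, 5.08, 5.24, 5.35 and 5.40 on the CD90 arrays and 2.30, 2.46, 2.58 and 2.72 on the p75 arrays. The CD90 and p75 arrays were each tight and did not overlap, whereas the TRKA and TRKA-TGF arrays overlapped over a wide range. It was lower in TRKA-TGF than in CD90 cells (log2 difference −9.87 ± 1.51 SE, adjusted p = 0.000416, limma), lower in TRKA-TGF than in p75 cells (−7.12, adjusted p = 0.00457) and lower in TRKA than in CD90 cells (−7.24, adjusted p = 0.00191). With a TRKA-TGF replicate left out the first of these ran from −8.94 to −10.99, and without TRKA replicate 3 the last was −5.81. The difference of −4.49 between TRKA and p75 cells passed the threshold with all arrays (adjusted p = 0.0328) but not with slide 1 alone (adjusted p = 0.0833), nor without TRKA replicate 3 (−3.06, adjusted p = 0.0917), without TRKA replicate 1 or without any one p75 array (adjusted p = 0.0577 to 0.0658). CD90 exceeded p75 cells by 2.75, at an adjusted p of 0.39 with all arrays and 0.000177 with those 2 populations alone.

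Thrombospondin-4, known from tendon, muscle and nervous tissue, had its highest mean in p75 cells, unlike Thbs1 and Thbs2. It read −7.79, −5.46, −8.12 and −6.50 on the TRKA-TGF arrays, −7.36, −7.65, −4.94 and −6.59 on the TRKA arrays, 0.27, −5.04, −1.74 and −8.02 on the CD90 arrays and 0.68, −0.77, −0.20 and −3.07 on the p75 arrays. One array each of TRKA-TGF and TRKA was above background, and the CD90 arrays spread over the whole range. Thbs4 was lower in TRKA than in p75 cells (−5.80 ± 1.46 SE, adjusted p = 0.00661, limma) and lower in TRKA-TGF than in p75 cells (−6.13, adjusted p = 0.00976), or by −6.54 and −6.87 without p75 replicate 4. CD90 minus p75 was −2.79 (adjusted p = 0.355). Without CD90 replicate 4 the difference of TRKA-TGF from CD90 cells was −4.80 (adjusted p = 0.0195), in place of −3.33 (adjusted p = 0.165).

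SPARC, also called osteonectin, is a collagen-binding glycoprotein that the olfactory ensheathing glia and fibroblasts are known to secrete. Its levels were 1.52, 1.96, 1.69 and 1.29 on the TRKA-TGF arrays, −5.23, 1.71, 3.78 and 2.61 on the TRKA arrays, 5.67, 5.78, 5.78 and 5.82 on the CD90 arrays and 6.07, 6.12, 6.17 and 6.03 on the p75 arrays. All TRKA-TGF and TRKA arrays lay below all CD90 and p75 arrays, and TRKA replicate 1 stood far below its group. Sparc was lower in TRKA than in p75 cells (log2 difference −5.38 ± 1.36 SE, adjusted p = 0.00701, limma; 0.0729 with slide 1 alone). Without TRKA replicate 1 the difference was −3.40 (adjusted p = 1.99e-05). It was lower in TRKA than in CD90 cells (−5.04, adjusted p = 0.0104; 0.0894 with those 2 populations alone), or −3.06 without TRKA replicate 1 (adjusted p = 4.69e-05). In TRKA-TGF it was 17.7-fold lower than in CD90 cells on the same slide (−4.15), which missed the threshold with all arrays (adjusted p = 0.0579) and passed it with slide 2 alone (adjusted p = 1.32e-05). Against p75 cells TRKA-TGF was lower (log2 difference −4.48, adjusted p = 0.0401), a call that was lost when any one array of either population was left out (adjusted p = 0.0735 to 0.0893). TRKA-TGF minus TRKA was 0.90 (adjusted p = 0.673) and turned to −1.09 without TRKA replicate 1 (adjusted p = 0.0491).

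Osteopontin, the secreted phosphoprotein encoded by Spp1 that binds integrins and CD44 and is abundant in macrophages and mineralised tissue, was highest in TRKA cells. Its levels were 4.01, 3.87, 3.55 and 3.83 on the TRKA-TGF arrays, 5.59, 6.03, 5.92 and 5.74 on the TRKA arrays, 3.22, 2.98, 3.14 and 2.89 on the CD90 arrays and 0.94, −0.12, 0.59 and −0.02 on the p75 arrays. No pair of populations overlapped, with TRKA highest, then TRKA-TGF, CD90 and p75. Spp1 was 44.4-fold higher in TRKA than in p75 cells (log2 difference 5.47 ± 0.26 SE, adjusted p = 2.64e-09, limma) and 6.78-fold higher in TRKA than in CD90 cells (2.76, adjusted p = 2.52e-06). In TRKA-TGF cells it was 11.1-fold higher than in p75 cells (3.47, adjusted p = 4.33e-07) and 4.01-fold lower than in TRKA cells (adjusted p = 8.05e-05). CD90 cells exceeded p75 cells 6.55-fold (2.71, adjusted p = 1.1e-05). Only the step between TRKA-TGF and CD90 cells, 0.76, did not pass the threshold with all arrays (adjusted p = 0.0681), and it passed with slide 2 alone (adjusted p = 0.0313). The 12 macrophage markers ran in the same order of populations (TRKA above TRKA-TGF, CD90 and p75, by the ranges given above); their part in the Spp1 differences was not tested.

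Fibronectin, the integrin-binding glycoprotein on which many cultured cells adhere, was highest in CD90 cells and lowest in TRKA-TGF cells by its brighter probe. That probe read 0.02, 0.17, 1.72 and −1.43 on the TRKA-TGF arrays, 4.65, 3.16, 4.24 and 3.02 on the TRKA arrays, 5.59, 5.42, 5.22 and 5.64 on the CD90 arrays and 3.14, 3.82, 3.46 and 2.83 on the p75 arrays. TRKA-TGF lay apart from all other populations, and TRKA and p75 cells overlapped. Fn1 was 12.5-fold lower in TRKA-TGF than in TRKA cells (log2 difference −3.65 ± 0.55 SE, adjusted p = 0.000275, limma), 40.7-fold lower than in CD90 cells (−5.35, adjusted p = 1.25e-05) and 9.15-fold lower than in p75 cells (−3.19, adjusted p = 0.000994). A second probe, A_44_P681660 at chr9:70702316-70702375, gave −5.60 (adjusted p = 3.12e-08, limma over all probes), −5.62 (adjusted p = 2.86e-08) and −3.51 (adjusted p = 2.16e-06) in those 3 comparisons. For TRKA cells the probes disagreed. The first put TRKA below CD90 cells (log2 difference −1.70, adjusted p = 0.0284) and 0.46 from p75 cells (adjusted p = 0.554), whereas the second put TRKA −0.01 from CD90 cells (adjusted p = 0.979) and 2.09 above p75 cells (adjusted p = 0.000124). CD90 exceeded p75 cells by 2.15 with the first probe (adjusted p = 0.0296) and 2.10 with the second (adjusted p = 0.000486). The first probe had 1 spot per array and the second 2. Calls by the first probe for TRKA against CD90 and for CD90 against p75 cells were each lost when single arrays were left out. The first was lost without CD90 replicate 1, 2 or 4 or TRKA replicate 2 or 4 (adjusted p = 0.0522 to 0.0747), and with the mean of both probes (adjusted p = 0.0553). The second was lost without any one CD90 array or p75 replicate 1, 3 or 4 (adjusted p = 0.0536 to 0.0845).

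**Figure D3:**
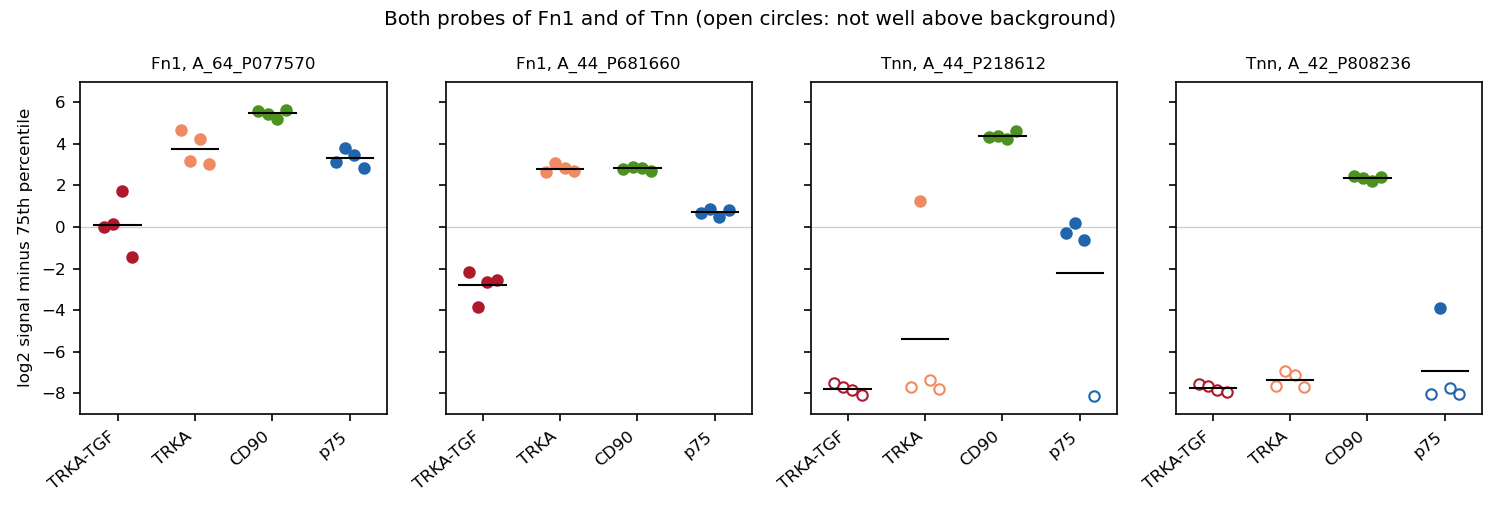
Levels of both probes of Fn1 and of Tnn on every array, as log2 signal minus the array's 75th percentile, by population; open circles were not well above background and bars are means of 4 arrays. In TRKA cells the second Fn1 probe sits beside the CD90 arrays. The first has its mean between those of CD90 and p75 and overlaps the p75 arrays. The second Tnn probe is above background on 1 p75 array and the first on 3.

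The promoters of 3 members are shown because Tnc and Postn shared their order of populations and Thbs1 did not. Each is the 250 bases before the gene start in RefSeq's GRCr8 table, 5′ to 3′ along the gene, with capitals at matches to the searched motifs TATAAA (the TATA box), GGGCGG (the GC box), GGAATG (of TEAD factors), TGANTCA (AP-1) and TGTGGT (of Runx factors) on either strand.
Tnc, chr5:82476132-82476381, minus strand: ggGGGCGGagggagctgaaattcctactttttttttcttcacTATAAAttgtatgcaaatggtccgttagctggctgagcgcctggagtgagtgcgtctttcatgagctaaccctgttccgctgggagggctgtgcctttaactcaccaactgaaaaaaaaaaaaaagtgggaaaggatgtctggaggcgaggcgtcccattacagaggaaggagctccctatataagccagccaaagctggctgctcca
Postn, chr2:140677811-140678060, plus strand: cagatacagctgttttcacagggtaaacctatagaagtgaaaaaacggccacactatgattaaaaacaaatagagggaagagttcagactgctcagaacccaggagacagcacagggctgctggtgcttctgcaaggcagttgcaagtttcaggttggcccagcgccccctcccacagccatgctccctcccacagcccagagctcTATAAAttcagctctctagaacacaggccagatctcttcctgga
Thbs1, chr3:125510000-125510249, plus strand: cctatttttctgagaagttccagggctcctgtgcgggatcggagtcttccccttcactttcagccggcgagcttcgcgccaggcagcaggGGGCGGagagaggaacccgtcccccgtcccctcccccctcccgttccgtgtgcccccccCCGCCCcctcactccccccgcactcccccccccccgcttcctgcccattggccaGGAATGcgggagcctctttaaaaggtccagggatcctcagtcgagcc
Of 33469 rat promoters of that length, 12.9% held TATAAA, 30.5% GGGCGG, 12.1% GGAATG, 6.34% TGANTCA and 14.5% TGTGGT. Postn held TATAAA at bases −44 to −39 before its start, and Tnc at −208 to −203 with a GGGCGG at −248 to −243. Tnc also held the letters tatataa nearer its start, left in lower case since they do not match TATAAA. The positions are thus those of the searched letters only. Thbs1 held GGGCGG at −160 to −155, its reverse complement at −101 to −96 and GGAATG at −47 to −42. No TGANTCA match lay in these 3 windows. A match of letters is a description of the sequence, not a binding site. The table matched 8 of the 10 members, without Thbs2 and Fn1.

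Related matricellular genes were lower in TRKA-TGF than in CD90 cells in 8 of the 13 tested, and none was higher, also at an unadjusted p under 0.05 in limma. Of all genes 14.9% were called in that comparison, and 7.19% of all genes were called as lower. The list held 17 genes, from the CCN, SMOC, SPARC-like and thrombospondin families with Fstl1, Tgfbi and Tnxb, 16 of them on the array. The largest differences in TRKA-TGF against CD90 cells were those of Ccn2 (connective tissue growth factor, −10.71, adjusted p = 3.31e-05, limma), Ccn4 (−9.06, adjusted p = 3.66e-07), Smoc1 (−8.18, adjusted p = 5e-04), Ccn5 (−7.49, adjusted p = 0.00335), Fstl1 (a secreted follistatin-like glycoprotein, −6.47, adjusted p = 0.00519) and Smoc2 (−6.09, adjusted p = 0.0214). On the TRKA-TGF arrays all of these but Fstl1 were above background on 1 array of 4. In TRKA against p75 cells 2 were higher and 4 lower (35.7% of all genes called). Ccn2 (−8.13, adjusted p = 0.000152) and Fstl1 (−6.70, adjusted p = 0.00177) were lower there, and Ccn3, a CCN protein that restrains proliferation in many cells, was higher (4.56, adjusted p = 0.000295). Ccn3 was also lower in TRKA-TGF than in TRKA cells (−5.36, adjusted p = 0.000147), where 3 of the 13 were lower and none higher, also at an unadjusted p under 0.05 in limma. There 26.4% of all genes were called. In TRKA against CD90 cells 2 were higher and 8 lower (34.9% of all genes called). Against the floor described for Tnn, Ccn4 was 296-fold lower there and Smoc1 161-fold lower, both above background on no TRKA array. In TRKA-TGF against p75 cells 3 were lower and none higher (15.1% of all genes called), with 1 higher at an unadjusted p under 0.05. The 3 were Ccn1 (−4.54, adjusted p = 5.87e-07, limma), Ccn2 (−10.97, adjusted p = 2.3e-05) and Fstl1 (−5.50, adjusted p = 0.014). CD90 exceeded p75 cells in 3 of the 13 and none was lower (7.25% of all genes called), with Ccn4 at 8.57 (adjusted p = 1.05e-06, limma) and Smoc1 at 4.51 (adjusted p = 0.0492). The Smoc1 call was lost with those 2 populations alone (adjusted p = 0.159), with the replicate block (0.069) and with no filter (0.0586). The median difference of the list was −4.59 in TRKA-TGF against CD90 cells and −2.08 in TRKA against p75 cells, beside the all-gene medians given above.

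Of 21 receptors and binding partners listed 18 were on the array and 16 were tested. In TRKA against p75 cells 4 were higher and 5 lower, where 35.7% of all genes were called. Cd36, the scavenger receptor that binds thrombospondin-1, was 101-fold higher in TRKA than in p75 cells (6.65 ± 0.62 SE, adjusted p = 2.08e-06, limma) and 76.7-fold higher in TRKA-TGF than in p75 cells (adjusted p = 6.87e-06). Itgb8, the beta chain of a TGF-beta-activating integrin, was above background on no TRKA or TRKA-TGF array. Against the floor described for Tnn it was 278-fold lower in TRKA and 363-fold lower in TRKA-TGF than in p75 cells. Ptprz1, a receptor phosphatase that binds tenascins, was 234-fold lower against that floor in TRKA than in p75 cells (adjusted p = 0.000209, limma). In TRKA-TGF against CD90 cells 3 were higher and 6 lower (14.9% of all genes called). Itga8, the alpha chain of an integrin for fibronectin, tenascin-C and osteopontin, was above background on 1 TRKA-TGF array and lower by the measured levels (log2 difference −8.27, adjusted p = 0.000893), and the syndecan Sdc1 was 21.9-fold lower (adjusted p = 1.58e-05), while Itga4, an integrin chain of leukocytes that binds osteopontin and fibronectin, was 22.5-fold higher (adjusted p = 0.00648). In TRKA-TGF against TRKA cells 1 was higher and 3 lower of the 16, beside 26.4% of all genes called: Itga4 was 37.8-fold higher (adjusted p = 0.00143) and Sdc1 40.9-fold lower (adjusted p = 3.22e-06). Counts were 2 higher and 4 lower in TRKA against CD90 cells (34.9% of all genes called), 3 higher and 5 lower in TRKA-TGF against p75 cells (15.1%) and 5 higher and 3 lower in CD90 against p75 cells (7.25%). With quantile normalization the TRKA-TGF against TRKA count became 3 higher and 2 lower.

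**Figure D4:**
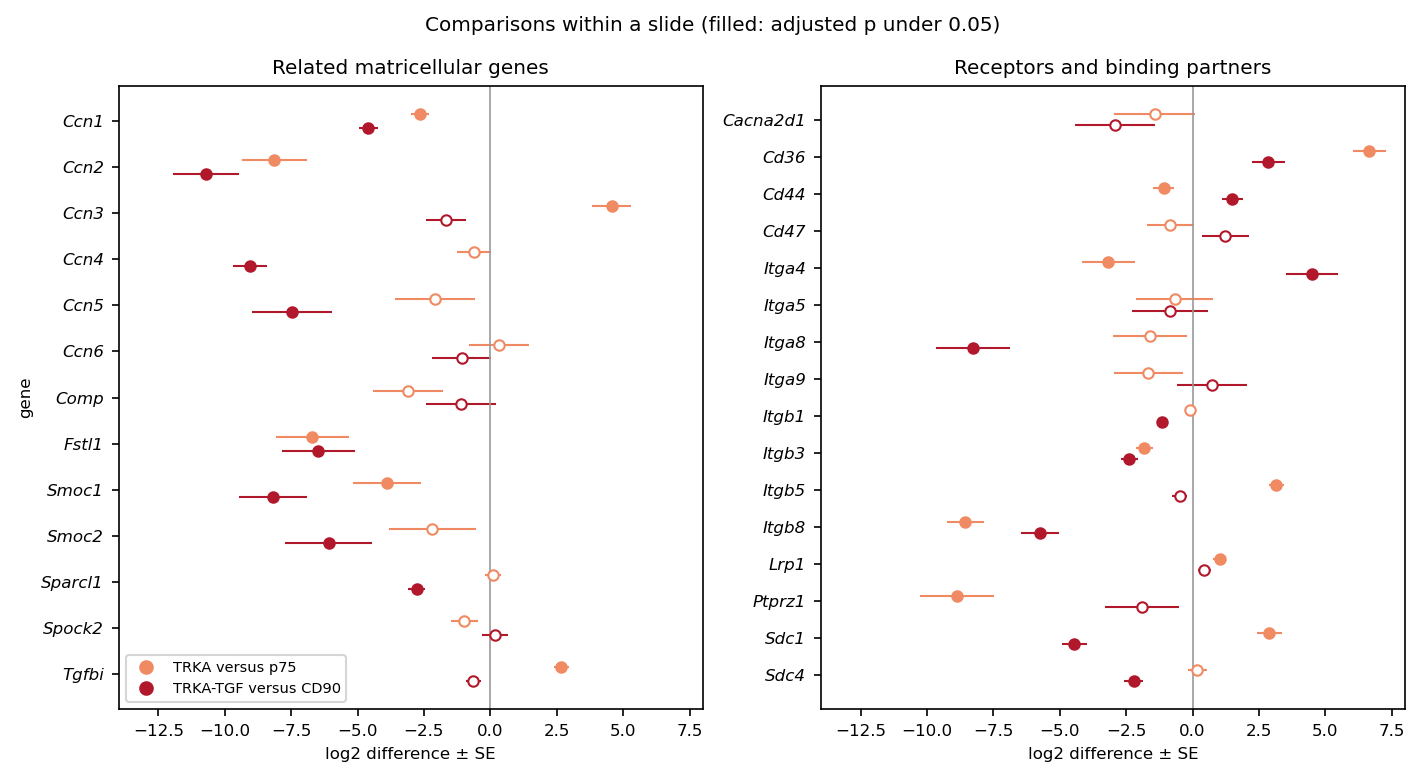
Log2 differences (points, ± SE) of 13 related matricellular genes and 16 receptors or binding partners in the comparisons made within a slide, TRKA minus p75 and TRKA-TGF minus CD90; filled points passed an adjusted p of 0.05 in limma. Most filled points of the left panel lie below 0, with Ccn3 and Tgfbi above it for TRKA minus p75, and the right panel has filled points on both sides.

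The genes whose levels over the 16 arrays lay nearest to a member were found by the root mean square of the difference after each gene was centred, among 14146 genes with a current symbol. For Spp1 they were Hmox1 (0.66 log2 units), Slc39a8 (0.68) and Mt1 (0.71). For Fn1 they were Plod2 (1.09), the collagen gene Col1a1 (1.11) and Kazald1 (1.12). Tnc was nearest to Igfbp5 (1.33) and Bcar3 (1.60), and Postn to Cald1 (1.75), Nedd4 (1.79) and Rcn3 (1.81). Sparc was nearest to Kif23 (1.32), Zwilch (1.40) and Pdzrn3 (1.41), Thbs2 to Frmd6 (1.68), Ccl20 (1.71) and Flnc (1.82), and Thbs4 to Epb41l4a (1.04), Me3 (1.15) and Pthlh (1.40). The nearest genes of Thbs1 (Pclaf at 2.11, Cxcl1 at 2.22 and Slpi at 2.44) and of Tnn (Pcdh9 at 2.22, Ptprk at 2.34 and Aldh1l2 at 2.50) were farther off. Tnr, which varied little, was nearest to Sycp2l (0.74), Fgf17 (0.78) and Xk (0.80).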

How the data were processed

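Messenger RNA of 16 sorted cell samples was turned into cDNA, amplified by global PCR, labelled with Cy3 and hybridised to Agilent rat arrays of 1 colour, per the labels' protocols. PCR from little RNA can widen differences of scarce transcripts. Spot intensity, with the background already subtracted, was read from the scanner files as deposited, per the file headers. The flags for spots well above background and for outliers are other values of the same files, deposited by the authors. The Feature Extraction version is 10.7.3.1 per the file headers and 10.5 per the submitters' processing notes. The authors' deposited table of log2 values comes with no statement of its scale. It ran on lines of slope 1.00 with centred quantile-normalized log2 signals and served as an alternative only. No spot among the 58717 of an array was saturated.

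Spots marked as non-uniform or population outliers were left out, spots of a probe were averaged, and log2 signals were set against the array's 75th percentile. A probe was kept when well above background on at least 4 arrays, and the kept probe of highest mean stood for its gene. Probes were named by RefSeq accession (18355), symbol or synonym (3180) or the file's own name (8832), through gene names of GRCr8. The package limma 3.58.1 in R 4.3.3 (with the package data.table at version 1.17.8) fitted 1 mean per population to all 16 arrays, with empirical Bayes moderation and Benjamini-Hochberg adjustment over 20571 genes; the fit was tested on simulated data. The number of arrays limits the precision. Alternatives were 2 normalizations, normexp with an offset of 50, other filters, probe means, flagged spots kept, the authors' values, an intensity trend, array weights, only the 2 populations compared, a replicate block and leaving out each array. Same-numbered replicates did not deviate together (24 correlations from −0.03 to 0.05), and the labels do not pair them. Members and lists were chosen with earlier results of these data known. Every member was named, as were the listed related genes and receptors called with a log2 difference over 4 (at most 6 per list and comparison) and the 3 nearest genes of each member; some results that these rules cover are not reported here.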

Additional observations from a re-analysis of the deposited data

Results flagged for a closer look

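In 6 of the 40 sets of 4 arrays (10 members in 4 populations) one array stood apart from the other 3, by a gap that took most of the set's range; chance flags about 1 set in 20. Tnn read 1.27 on TRKA replicate 2, and the next TRKA array read −7.33. Tnn read −8.13 (−8.125) on p75 replicate 4, and the next p75 array read −0.64. Postn read 0.35 (0.347) on TRKA replicate 3, and the next TRKA array read −7.54. Tnr read −1.29 (−1.293) on the same TRKA replicate 3, and the next array read −5.14. Thbs1 read −0.22 (−0.222) on TRKA-TGF replicate 3, and the next TRKA-TGF array read −7.19. Tnr read −4.94 (−4.938) on TRKA-TGF replicate 4, and the next array read −5.55, a small gap in a narrow range. In the Tnn, Postn and Thbs1 sets the nearest array was on the other side of the detection limit. The causes were not tested.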

How the results depend on the processing

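The count of members called in TRKA-TGF against CD90 cells was 5 and became 8 with normexp, with array weights and with only the 2 populations compared. The count over all genes rose too, from 3069 to 3423, 4676 and 4183. In CD90 against p75 cells the member count was 2 and became 4 with normexp and with only those populations. Over all genes it rose from 1492 to 1990 and 1759. With an array left out the member count was 1 to 2, and 1199 to 1293 of all genes were called. Fn1 was lost without any CD90 array or without p75 replicate 1, 3 or 4 (adjusted p = 0.0536 to 0.0845, limma). Leaving out an array gave 5 to 6 members in TRKA-TGF against CD90, 6 to 7 in TRKA against CD90, 5 to 7 in TRKA against p75, 6 to 7 in TRKA-TGF against p75 and 4 to 6 in TRKA-TGF against TRKA cells. In the same order, the counts over all genes were 2441 to 2646, 6288 to 7372, 6280 to 7671, 2532 to 2688 and 4327 to 5819. The replicate block left the member counts at 6, 5, 2, 7, 7 and 4 (TRKA against p75, TRKA-TGF against CD90, CD90 against p75, TRKA against CD90, TRKA-TGF against p75 and TRKA-TGF against TRKA). Same-numbered samples shared a column position on the slides, and the labels do not say whether they shared animals. With array weights the count of all genes called was 4676 in place of 3069 in TRKA-TGF against CD90, 5009 in place of 3109 in TRKA-TGF against p75 and 2239 in place of 1492 in CD90 against p75 cells, and 5718 in place of 7352 in TRKA against p75, 5380 in place of 7175 in TRKA against CD90 and 3986 in place of 5434 in TRKA-TGF against TRKA cells. For TRKA against p75, TRKA against CD90 and TRKA-TGF against TRKA cells the higher share of called genes was 66.9%, 62.7% and 38.8% with normexp.

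Differences that changed sign missed the threshold after the change, except Sparc in TRKA-TGF against TRKA cells, which ran from −1.085 to 1.921 with an array left out (adjusted p = 0.0491 at the lowest, without TRKA replicate 1). Fn1 in TRKA against p75 cells turned to −0.38 (−0.378) with quantile normalization and with the authors' values and to −0.44 (−0.435) with the percentile over detected probes, while the mean of its probes gave 1.27 (adjusted p = 0.00714). Postn in CD90 against p75 cells turned to 0.016, 0.015 and 0.051 under the same 3 settings, and ran from −0.096 to 0.016 with an array left out. Thbs4 in TRKA-TGF against TRKA cells turned to 0.43 (0.434) with the percentile over detected probes. Tnr turned to −0.37 (−0.373) with that percentile in TRKA against CD90 cells, and in TRKA-TGF against p75 cells to −0.148 (quantile), −0.118 (detected probes) and −0.15 (authors' values). With an array left out Thbs4 in TRKA-TGF against TRKA cells ran from −0.832 to 0.236. Tnr ran from −0.343 to 0.906 in CD90 against p75, from −0.408 to 1.429 in TRKA against CD90, from −0.897 to 0.351 in TRKA-TGF against CD90 and from −0.207 to 0.217 in TRKA-TGF against p75 cells. Signals below background limit the differences of Tnc and Postn that involve TRKA cells, of Thbs1 that involve TRKA-TGF cells, and of Tnn, Thbs2 and Thbs4 that involve either. They also limit those of Tnn that involve p75 cells, of Thbs4 that involve CD90 cells and of Tnr that involve TRKA-TGF or p75 cells. The causes of these changes were not tested.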
